A study of Caenorhabditis elegans with 24 samples.

Results

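The RNA of 10 core autophagy genes was followed in whole adult *C. elegans* in which the Rag GTPase RAGA-1 was degraded in neurons or in all somatic tissues. The genes were taken by name from the table of 21982 genes: the Atg8 genes *lgg-1* and *lgg-2*, the initiation kinase gene *unc-51*, the Beclin gene *bec-1*, the membrane and PI3P genes *atg-9* and *atg-18*, the Atg8 conjugation gene *atg-16.2*, the receptor gene *sqst-1*, the tether gene *epg-5* and the transcription factor gene *hlh-30*. All 10 were present, and all 10 passed the filter for testing (10 or more normalized counts in at least 4 of 24 libraries). A normalized count is a gene's read count divided by 1 size factor per library. After somatic AID of RAGA-1, *lgg-1*, *lgg-2*, *hlh-30* and *sqst-1* rose, *atg-18* fell, and the other 5 genes did not pass the test. After neuronal AID, *lgg-1* rose and the other 9 genes did not pass the test.

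Animals of 3 strains were kept with or without auxin, in 6 groups of 4 libraries. In the auxin-inducible degradation system, the plant protein TIR1 marks a degron-tagged protein for the proteasome when auxin is present. Wild type animals were of the strain N2 Bristol and carry neither TIR1 nor the degron. RAGA-1::AID Neuronal (WBM1250) carries *raga-1(wbm40)*, in which endogenous *raga-1* is fused to the degron and EmGFP, and *wbmIs83*, in which the neuronal *rab-3* promoter drives 3xflag::TIR1. RAGA-1::AID Somatic (WBM1438) carries the same *raga-1(wbm40)* allele and *ieSi57*, in which the *eft-3* promoter drives TIR1::mRuby in somatic tissues, with Cbr-unc-119(+). The germline is thus outside the tissues in which TIR1 is meant to act in both strains. Treated animals were moved to plates with 0.15 mM auxin at day 1 of adulthood, the animals without auxin received its solvent ethanol, and all were harvested at day 3. Each library came from a lysate of about 400 whole worms, and the study's methods state that replicates were collected on separate days. Neither AID strain is accompanied here by animals with TIR1 alone or with tagged RAGA-1 alone. The paper reports that fluorescence of tagged RAGA-1 was already reduced in RAGA-1::AID Somatic without auxin, through degradation that needs no auxin. By that report, the somatic group without auxin is not a baseline of intact RAGA-1.

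Autophagy encloses cytoplasm in a double membrane, the autophagosome, which then fuses with lysosomes. The UNC-51 kinase complex starts the process, a Beclin-containing lipid kinase makes PI3P on the growing membrane, and the Atg8 proteins LGG-1 and LGG-2 are coupled to lipid and stay on that membrane. mTORC1, which RAGA-1 activates when amino acids are plentiful, restrains autophagy by phosphorylation of the initiation kinase in yeast and mammals, and it keeps TFEB, the mammalian counterpart of HLH-30, in the cytoplasm. Much of this control acts on proteins. RNA was measured here, and neither lipid-bound LGG-1 nor autophagosomes were.

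Recovered depth was 16982857 to 41671106 reads per library. The *raga-1* transcript was lower in both tagged strains before auxin, with 1614 to 1747 normalized counts in RAGA-1::AID Neuronal and 1646 to 1741 in RAGA-1::AID Somatic against 2673 to 3025 in wild type (log2 fold changes -0.76 and -0.75, adjusted p = 2.28e-10 and 1.52e-10). The system removes the protein, so this transcript does not check the degradation. Auxin left *raga-1* at 1552 to 1655 in RAGA-1::AID Neuronal (log2 fold change -0.05, adjusted p = 0.637), and the gene fell by 0.18 on the log2 scale in RAGA-1::AID Somatic (adjusted p = 0.00167).

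Several marker lists of tissues moved with somatic AID, where 35.6% of all genes tested were called (16% higher and 19.6% lower). Of 11 germline and oocyte genes, 9 fell, with a summed level of 344656 to 374452 normalized counts against 398691 to 412822 without auxin. All 4 pharynx muscle genes rose (summed level 2296 to 2643 against 1209 to 1500), as did 4 of 8 neuronal genes (7066 to 7166 against 5998 to 6248), 4 of 6 body wall muscle genes (23941 to 26579 against 19709 to 21456) and 3 of 6 intestinal genes (5993 to 7420 against 4066 to 5196). In the neuronal list *snb-1* fell, and in the body wall muscle list *myo-3* fell. Of 3 hypodermal genes tested none passed the test. Of 10 early embryonic genes 6 could be tested, and *pes-10*, *ceh-51* and *hlh-1* rose; the summed level was 307 to 349 against 139 to 234, with *tbx-35* and *med-1* at 0 in all 4 libraries without auxin. After neuronal AID 1 gene of all these lists passed the test, the intestinal esterase gene *ges-1*, which rose by 0.54 on the log2 scale (adjusted p = 0.00784), where 0.441% of all genes tested were called. The neuronal AID sums were 1673 to 2148 against 1289.8 to 1703 for pharynx muscle, 296 to 352 against 159 to 299 for the embryonic list and 389436 to 405297 against 399371 to 409120 for the germline list. Since whole animals were measured, fewer or more cells of a type and less or more RNA per cell cannot be told apart, and the part of these shifts in the values below was not tested.

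**Figure D1:**
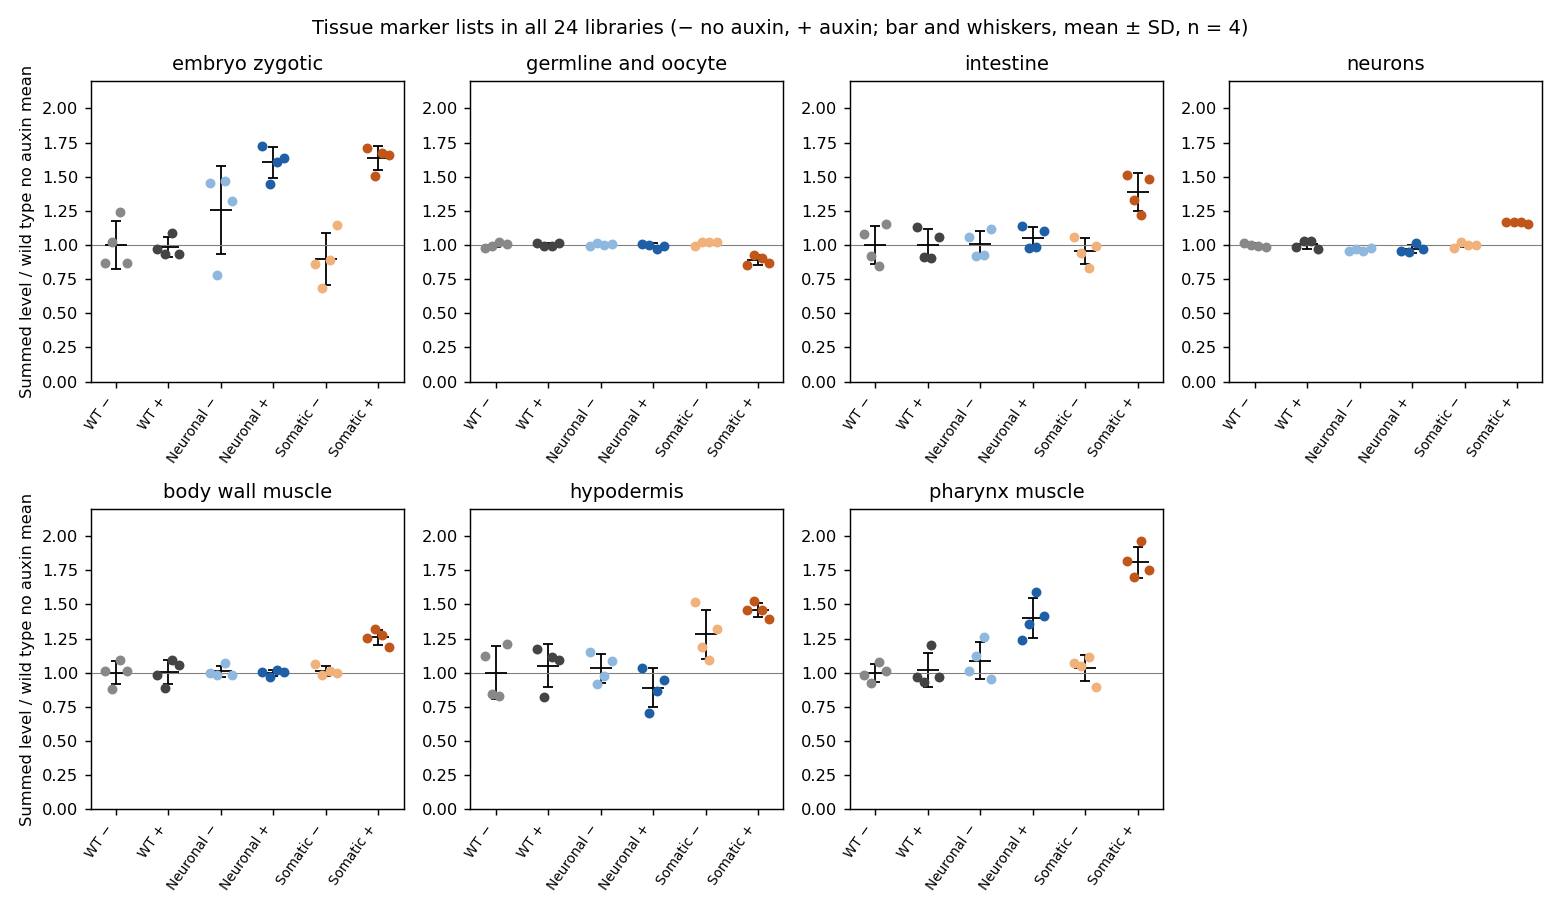
Summed level of each tissue marker list in every library, divided by the mean of wild type no auxin (vertical axis, linear, starting at 0); points are libraries in the 6 groups (− no auxin, + auxin), and bars with whiskers are the mean ± SD of 4 libraries. In RAGA-1::AID Somatic with auxin the germline and oocyte sums lie below, and the pharynx muscle, body wall muscle, neuronal and intestinal sums above, those of the same strain without auxin.

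Levels of different genes were compared per kilobase of merged exons. In wild type without auxin *lgg-1* was the most abundant of the 10 transcripts, with 9358 ± 70.4 normalized counts per kb (SD, n = 4). It was followed by *lgg-2* with 3250.2 ± 113 and *atg-18* with 3151 ± 66.4, which did not differ by more than their spread. The next pair, *atg-9* with 1151 ± 14.5 and *bec-1* with 1117 ± 49.2, differed by less than the SD of *bec-1*. Below them came *sqst-1* with 682 ± 135, *unc-51* with 535 ± 40.2, *atg-16.2* with 502 ± 13.8 and *hlh-30* with 408 ± 12.6, and *sqst-1* had the widest spread of the 10 genes. The levels of *unc-51* and *atg-16.2* differed by less than the SD of *unc-51*. The lowest was *epg-5* with 181 ± 9.24 normalized counts per kb. The place of *hlh-30* depends on the length used, since the gene has 13 annotated transcripts: per kb of its longest transcript its level was 516 normalized counts, which lies above *atg-16.2*.

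*lgg-1* encodes the worm GABARAP-type Atg8 protein, the usual marker of autophagosomes. The gene (WBGene00002980) lies on chromosome II from 6346960 to 6347719 on the minus strand (WBcel235) and has 1 annotated transcript of 2 exons. Without auxin its normalized counts were 6616, 6681, 6562 and 6642 in wild type, 6567, 6589.9, 6604 and 6794 in RAGA-1::AID Neuronal, and 6679, 7019, 7188 and 6493 in RAGA-1::AID Somatic. With auxin they were 6847, 6727, 6635 and 6439 in wild type, 7379, 7326, 7535 and 7238 in RAGA-1::AID Neuronal, and 8535, 8737, 8444 and 8368 in RAGA-1::AID Somatic. All 4 auxin libraries lay above all 4 without auxin in both AID strains, with the somatic auxin libraries highest, and the wild type groups overlapped.

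After somatic AID *lgg-1* rose by 0.32 ± 0.026 on the log2 scale (SE; 1.25-fold, adjusted p = 7.26e-09, limma with Benjamini-Hochberg adjustment over 13150 genes, calls at 0.01 or less). It was 1 of 5 core genes called there, where 35.6% of all genes tested were called. After neuronal AID it rose by 0.15 ± 0.026 (1.11-fold, adjusted p = 0.00329), and it was the 1 core gene called in a comparison in which 0.441% of all genes tested were called. In wild type the change with auxin was 0.01 (95% interval -0.05 to 0.06). The rise was larger after somatic than after neuronal AID by 0.17 ± 0.037 (adjusted p = 0.00302) and larger than in wild type by 0.31 (adjusted p = 4.86e-06). The excess of neuronal AID over wild type was 0.14 (95% interval 0.07 to 0.22) and did not pass the test (adjusted p = 0.221; 2 of all genes tested passed it). The spread of *lgg-1* within groups was small, with a residual SD of 0.036 on the log2 scale against a median of 0.15 over all genes tested.

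The somatic call of *lgg-1* held when any 1 of its 8 libraries was left out. The neuronal call did not: leaving out no auxin replicate 1, 2 or 3 or auxin replicate 3 of that strain, the change stayed at 0.15, 0.15, 0.15 and 0.14 while the adjusted p rose to 0.0191, 0.0131, 0.0144 and 0.0179. Earlier results of these data had shown replicates 1 and 4 apart from 2 and 3 in many genes, a split for which the labels name no batch. By the study's methods, RNA was extracted from 2 replicates at a time. The pairs are not named, and a link to the split was not tested. Within replicates 1 and 4 the neuronal change was 0.13 (adjusted p = 0.238) and within replicates 2 and 3 it was 0.17 (adjusted p = 0.0404), and the difference between somatic and neuronal AID was 0.23 (adjusted p = 0.0149) and 0.10 (adjusted p = 0.204).

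*lgg-2* encodes the LC3-type Atg8 protein, which acts beside LGG-1 in autophagosome formation. It (WBGene00002981) lies on chromosome IV from 10934196 to 10935903 on the minus strand. Its normalized counts were 3554, 3113, 3173 and 3202 in RAGA-1::AID Somatic without auxin and 3938, 3970.1, 3627 and 3582 with auxin, so the groups did not overlap, although the lowest auxin library was only slightly above the highest without auxin. In RAGA-1::AID Neuronal they were 3336, 3162, 3070.4 and 3143 without auxin and 3492, 3245, 3294 and 3150.5 with it, and in wild type 3470.3, 3392, 3207 and 3439 without and 3323, 3309, 3455 and 3283 with it. These 4 groups overlapped.

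After somatic AID *lgg-2* rose by 0.21 ± 0.043 on the log2 scale (1.16-fold, adjusted p = 0.000321), and within replicates 1 and 4 the change was 0.15 (adjusted p = 0.0808). After neuronal AID the change was 0.05 (95% interval -0.04 to 0.14), and the difference between the AID strains, 0.16 (95% interval 0.04 to 0.29), did not pass the test (adjusted p = 0.058). Somatic AID exceeded the wild type change by 0.23 (adjusted p = 0.0072). That last call was lost with no filter (adjusted p = 0.0112), in a fit of the compared libraries alone (adjusted p = 0.015) and within replicates 1 and 4 (0.22, adjusted p = 0.116) or 2 and 3 (0.24, adjusted p = 0.0618). It was also lost (0.20 to 0.23, adjusted p 0.0121 to 0.0188) when any of 11 of the 16 libraries was left out: wild type no auxin replicates 1, 2 and 4, wild type auxin replicates 1, 2 and 4, RAGA-1::AID Somatic no auxin replicates 2, 3 and 4, and RAGA-1::AID Somatic auxin replicates 1 and 2.

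The ratio of *lgg-1* to *lgg-2* per kilobase was between 2.88 and 3.31 in the group means, and its lowest value in a library was 2.76, so *lgg-1* exceeded *lgg-2* in all 24 libraries. It was 3.09 ± 0.27 in RAGA-1::AID Somatic without auxin and 3.31 ± 0.13 with it, and 3.07 ± 0.13 and 3.29 ± 0.13 in RAGA-1::AID Neuronal. In wild type it was 2.88 ± 0.089 without auxin and 2.93 ± 0.095 with it.

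*hlh-30* encodes the worm counterpart of TFEB, a transcription factor that turns on autophagy and lysosome genes. It (WBGene00020930) lies on chromosome IV from 4014793 to 4034951 on the minus strand. In RAGA-1::AID Somatic its normalized counts were 1134, 1384, 1257 and 1235 without auxin and 1525, 1552, 1600.1 and 1586 with auxin, with no overlap. In RAGA-1::AID Neuronal they were 1352, 1368, 1353 and 1421 without auxin and 1326, 1342, 1351 and 1380.3 with it. In wild type they were 1369, 1274, 1347 and 1342 without auxin and 1319.7, 1390.3, 1370.4 and 1342 with it. The somatic auxin libraries were the 4 highest of all 24, while the same strain without auxin held the lowest value.

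After somatic AID *hlh-30* rose by 0.33 ± 0.041 on the log2 scale (1.25-fold, adjusted p = 1.91e-06). After neuronal AID the change was -0.02 (95% interval -0.11 to 0.06). The difference between somatic and neuronal AID was 0.35 ± 0.058 (adjusted p = 0.000284), the largest such difference among the 10 genes, and the difference between somatic AID and wild type was 0.30 (adjusted p = 0.000619). The call after somatic AID held under all 15 alternatives and with any 1 of its 8 libraries left out, while within replicates 2 and 3 the difference from neuronal AID was 0.27 (adjusted p = 0.0675) and that from wild type 0.18 (adjusted p = 0.163).

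*sqst-1* encodes the worm p62, a receptor that binds ubiquitinated cargo and Atg8 and is itself broken down by autophagy. It (WBGene00011737) lies on chromosome IV from 12034282 to 12036891 on the plus strand. In RAGA-1::AID Somatic its normalized counts were 1742, 1669, 1523 and 1299 without auxin and 2316, 2770.0, 1696 and 2245 with auxin, and auxin replicate 3 lay within the range without auxin. In RAGA-1::AID Neuronal they were 1604, 1473, 1259.7 and 1522 without auxin and 2168, 1822, 1659 and 1659 with it, and these groups did not overlap. In wild type they were 1649, 1329, 1255 and 1915 without auxin and 1735, 1341, 1489 and 1662 with it. The wild type libraries without auxin alone spread more widely than those of RAGA-1::AID Neuronal without auxin.

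After somatic AID *sqst-1* rose by 0.52 ± 0.14 on the log2 scale (1.44-fold, adjusted p = 0.00421), the largest change among the 10 genes and the one with the largest error. The call was lost when RAGA-1::AID Somatic no auxin replicate 3 or 4 or auxin replicate 1, 2 or 4 was left out (0.51, 0.44, 0.50, 0.42 and 0.52, adjusted p = 0.0108, 0.0204, 0.0128, 0.0215 and 0.011), within replicates 2 and 3 (0.44, adjusted p = 0.0951) and in a fit of the 8 compared libraries alone (adjusted p = 0.0164). After neuronal AID the change was 0.32 (95% interval 0.02 to 0.61) and did not pass the test (adjusted p = 0.299). The difference between somatic and neuronal AID was 0.21 (95% interval -0.21 to 0.62), so the data do not separate the responses of *sqst-1* in the strains. The difference from wild type was 0.49 for somatic AID (adjusted p = 0.0685) and 0.28 for neuronal AID (adjusted p = 0.889).

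*atg-18* encodes the WIPI protein that binds PI3P on forming autophagosomes, and it (WBGene00018294) lies on chromosome V from 8629174 to 8631327 on the minus strand. In RAGA-1::AID Somatic its normalized counts were 5337, 5493, 5614 and 5717 without auxin and 4851, 5131, 4747 and 4722 with auxin. In RAGA-1::AID Neuronal they were 5502, 5744, 5585 and 5471 without auxin and 5308, 5544, 5532 and 5555 with it. In wild type they were 5514, 5796, 5678 and 5724 without auxin and 5632, 5586, 5592 and 5840.2 with it. The somatic auxin libraries were the 4 lowest of all 24.

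After somatic AID *atg-18* fell by 0.19 on the log2 scale (SE 0.028, adjusted p = 1.02e-05), and within replicates 2 and 3 the change was -0.17 (adjusted p = 0.0104). After neuronal AID the change was -0.02 (95% interval -0.08 to 0.03). Somatic AID was lower than neuronal AID by a difference of -0.16 (adjusted p = 0.00467) and lower than wild type by a difference of -0.18 (adjusted p = 0.00127). Under quantile normalization these differences were -0.11 (adjusted p = 0.0496) and -0.13 (adjusted p = 0.0183). Within replicates 1 and 4 they were -0.19 (adjusted p = 0.051) and -0.24 (adjusted p = 0.0168), and within replicates 2 and 3 they were -0.14 (adjusted p = 0.174) and -0.13 (adjusted p = 0.161). In a fit of the compared libraries alone the adjusted p of the difference from neuronal AID was 0.0123. The difference from neuronal AID was also lost (-0.16 to -0.15, adjusted p 0.0102 to 0.0128) on leaving out RAGA-1::AID Neuronal no auxin replicate 1 or 4, RAGA-1::AID Neuronal auxin replicate 2, 3 or 4, RAGA-1::AID Somatic no auxin replicate 3 or 4 or RAGA-1::AID Somatic auxin replicate 3 or 4, and the germline and oocyte sums given above were lower with auxin in the same strain.

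**Figure D2:**
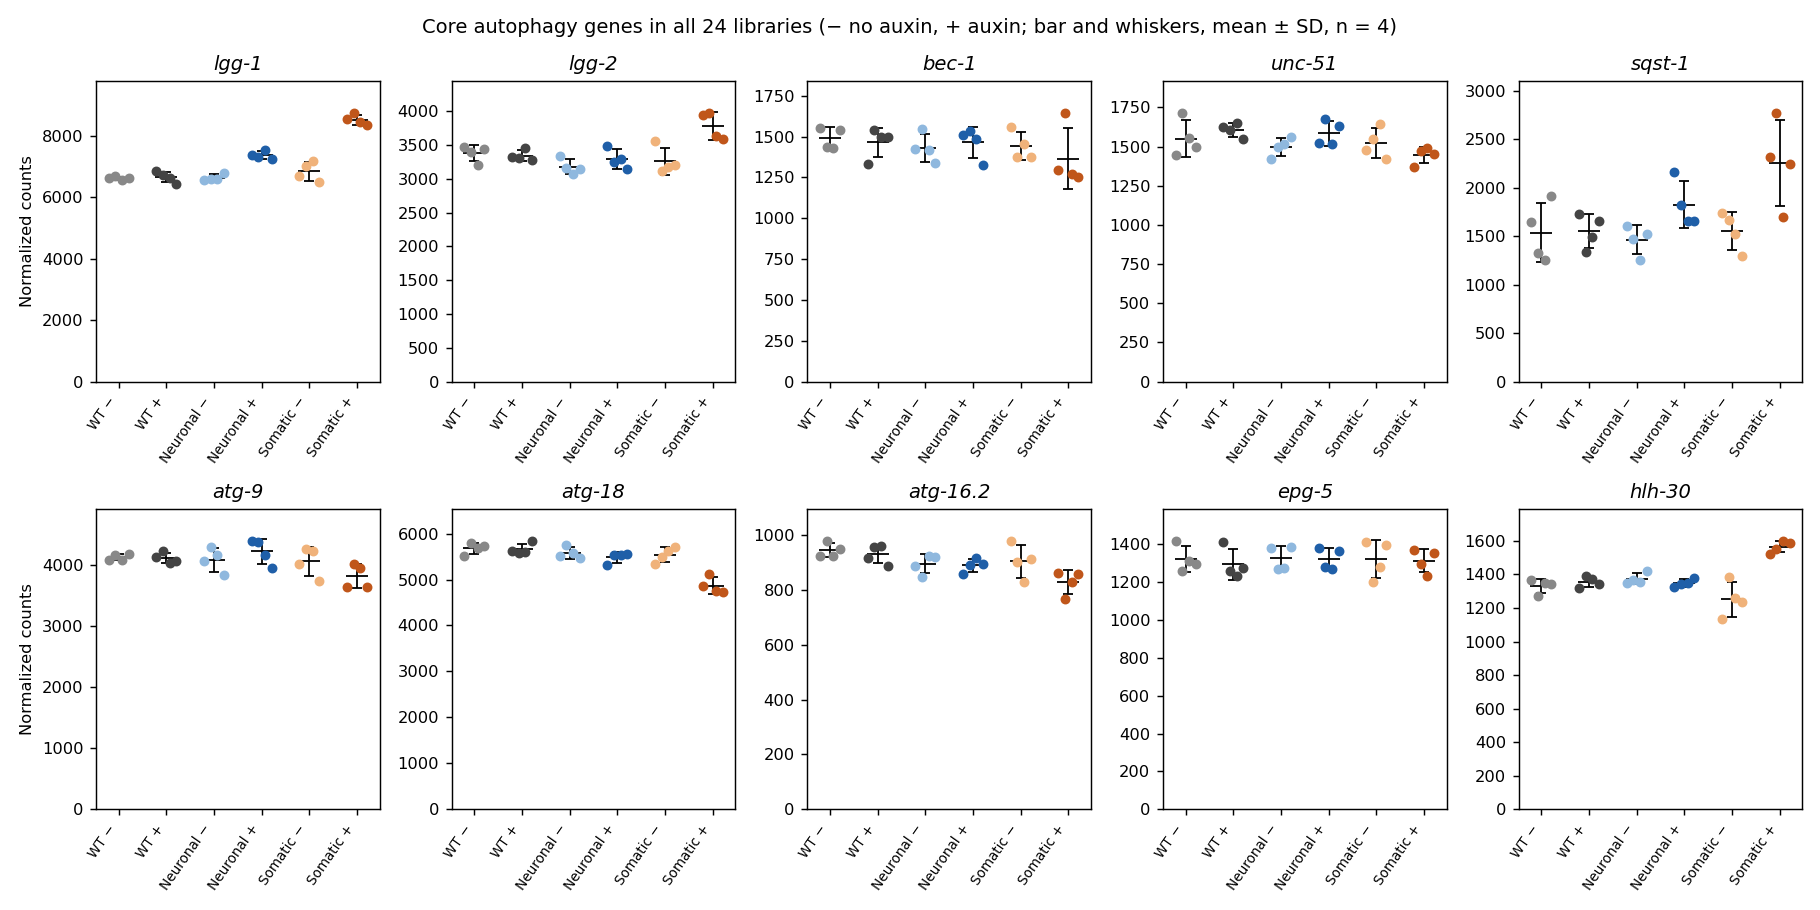
Normalized counts (vertical axis, linear, starting at 0, a separate scale for each gene) of the 10 core autophagy genes in every library; points are the 4 libraries of each group (− no auxin, + auxin), and bars with whiskers are the mean ± SD. The *lgg-1* points rise in both AID strains with auxin, those of *hlh-30* rise and those of *atg-18* fall in RAGA-1::AID Somatic with auxin, and *sqst-1* has the widest spread.

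The remaining 5 genes did not pass the test in any of the comparisons. *unc-51*, the worm ULK1 kinase gene on chromosome V (WBGene00006786, 19995986 to 20004485, minus strand), had 1422 to 1645 normalized counts in RAGA-1::AID Somatic without auxin and 1372 to 1493 with it (log2 fold change -0.07, 95% interval -0.18 to 0.03). In RAGA-1::AID Neuronal it had 1417 to 1559 and 1513 to 1674 (0.08, 95% interval -0.02 to 0.19). *bec-1*, the Beclin gene on chromosome IV (WBGene00000247, 5661141 to 5664425, minus strand), had 1557, 1375, 1454 and 1376 in RAGA-1::AID Somatic without auxin and 1298, 1643, 1270.0 and 1251 with auxin (-0.08, 95% interval -0.23 to 0.06). Auxin replicate 2 was thus the highest and the other 3 auxin libraries the lowest of the 8.

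*atg-9*, which encodes the transmembrane lipid scramblase of the growing membrane, lies on chromosome V from 349385 to 359658 on the plus strand (WBGene00020706). It had 3747 to 4266 normalized counts in RAGA-1::AID Somatic without auxin and 3648 to 4029.7 with it, which overlap (log2 fold change -0.09, 95% interval -0.18 to 0.00, adjusted p = 0.0936). *atg-16.2*, a part of the complex that couples Atg8 to lipid, lies on chromosome II from 6450889 to 6453391 on the minus strand (WBGene00019427). It had 976, 902, 829 and 913 without auxin and 859.7, 767, 829 and 857 with it (-0.13, adjusted p = 0.0282). Leaving out RAGA-1::AID Somatic no auxin replicate 3, the lowest of its group, brought *atg-16.2* past the test (-0.17, adjusted p = 0.00503). After neuronal AID *atg-9* changed by 0.05 and *atg-16.2* by -0.01.

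*epg-5* encodes a tether between autophagosomes and late endosomes or lysosomes, and it lies on chromosome II from 6598344 to 6609365 on the minus strand (WBGene00016968). It had 1411, 1198, 1280.0 and 1394 normalized counts in RAGA-1::AID Somatic without auxin and 1371, 1298, 1232 and 1353 with it, and the log2 fold change of -0.01 had a 95% interval of -0.12 to 0.11. After neuronal AID it was 0.00 with the same width (-0.12 to 0.11). An exon of *epg-5* overlaps one of *vps-33.2* on the other strand, and although the libraries were made strand-specific, the sources used here do not give whether counting used strand, which leaves its counts uncertain. Replicates 1 and 4 of *epg-5* both lay above replicates 2 and 3 in 5 of 6 groups, which happened in 1 direction in at least 5 groups for 5.29% of all genes tested.

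As a set, 4 core genes rose and 1 fell after somatic AID, where 16% of all genes tested rose and 19.6% fell. The median log2 fold change of the 10 genes was -0.04, against 0.01 over all genes tested. The groups of *lgg-1*, *lgg-2*, *hlh-30* and *atg-18* did not overlap, 4 of 10 genes where 37.7% of all genes tested did not overlap, a share near that background. After neuronal AID the median was 0.04 against -0.00 over all genes tested, and the groups of *lgg-1* and *sqst-1* did not overlap, 2 of 10 where 10.8% of all genes tested did not overlap.

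Neither auxin alone nor the strain background gave a call of a core gene. With auxin in wild type, limma called 0 core genes and 0% of all genes tested at the threshold (303 had an unadjusted p under 0.05, and edgeR and DESeq2 called 0 of the 10 core genes), and the 10 changes lay between -0.03 and 0.05. No core gene's groups stood apart, where 1.73% of all genes tested did not overlap. Without auxin, RAGA-1::AID Somatic differed from wild type by -0.09 (*hlh-30*) to 0.05 (*lgg-1*), with 0.213% of all genes tested called and none of the core genes (1285 of all genes had an unadjusted p under 0.05). RAGA-1::AID Neuronal differed from wild type by -0.09 (*lgg-2*) to 0.04 (*hlh-30*), with 0.0076% of all genes tested called and again no core gene (654 had an unadjusted p under 0.05), and edgeR and DESeq2 called 0 core genes in both strain comparisons. In these strain comparisons no core gene's groups stood apart, where 4.15% (somatic) and 3.43% (neuronal) of all genes tested did not overlap. Between the AID strains 3 of 10 core genes responded differently (*lgg-1*, *atg-18* and *hlh-30*) where 11.2% of all genes tested did, and between somatic AID and wild type 4 of 10 did (*lgg-2* in addition) where 16.8% of all genes tested did. For neuronal AID against wild type it was 0 of 10, where 0.0152% of all genes tested were called and 870 had an unadjusted p under 0.05; edgeR and DESeq2 also called 0 core genes. The somatic and neuronal differences from wild type share the wild type libraries.

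**Figure D3:**
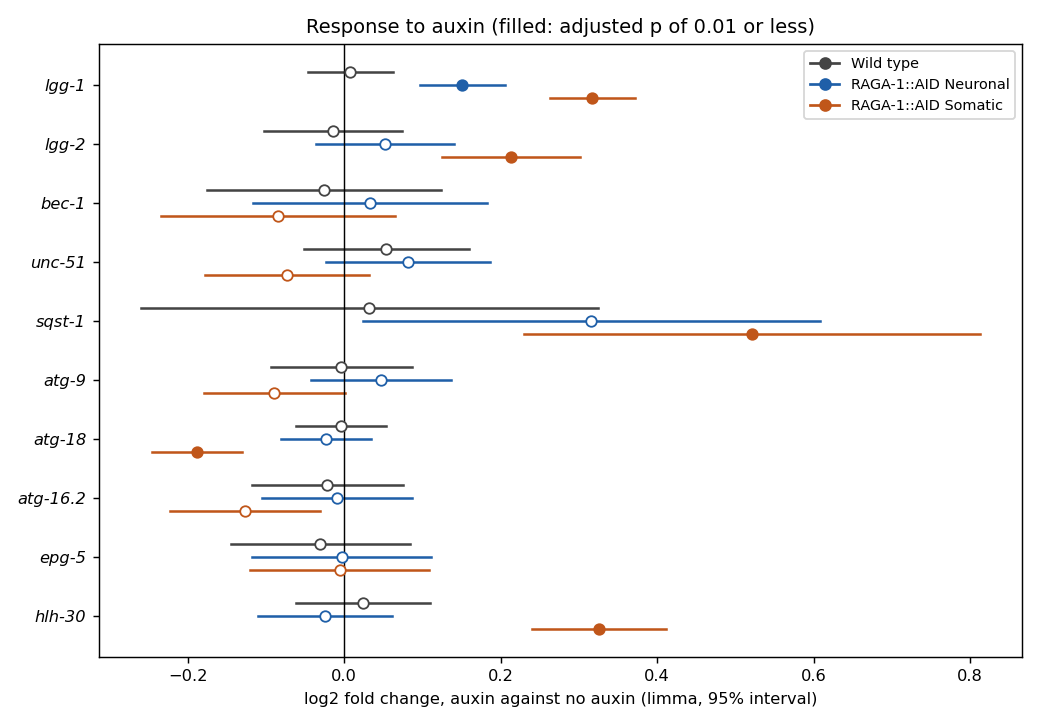
Log2 fold change with auxin against no auxin (horizontal axis) of the 10 core autophagy genes in wild type and both AID strains; points are limma estimates, lines their 95% intervals, and filled points passed an adjusted p of 0.01. Filled points are *lgg-1* in both AID strains and *lgg-2*, *sqst-1*, *hlh-30* and *atg-18* in RAGA-1::AID Somatic, and *sqst-1* has the widest intervals.

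The genes most like *lgg-1*, *sqst-1* and *hlh-30* across the 24 libraries were looked up by Pearson correlation of log2 normalized counts, as a description, since all libraries share the same 6 groups. For *lgg-1* these were *Y37D8A.2* (r = 0.955), *cab-1* (r = 0.953) and *Y39G10AR.11* (r = 0.948). For *sqst-1* they were *tent-5* (r = 0.941), *nhr-176* (r = 0.933) and *F54D1.6* (r = 0.921), and for *hlh-30* they were *F47D12.3* (r = 0.895), *swm-1* (r = 0.885) and *nspg-8* (r = 0.864). *F47D12.3* had a mean of 9.07 normalized counts, so its level was near the limit of the filter.

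A further 51 genes of autophagy, lysosomal breakdown and their control were read from a list, and all 51 were tested. After somatic AID 11 rose and 15 fell, which is 51% called against 35.6% of all genes tested, and the median log2 fold change was -0.08 against 0.01. In the initiation complex, *epg-9*, the Atg101 gene, rose by 0.22 (adjusted p = 0.00593) and *atg-13* and *epg-7* did not pass the test. Of 3 genes of the lipid kinase complex *vps-15* fell (by 0.20), with values of -0.10 for *vps-34* and -0.09 for *epg-8*. Of 3 PI3P effector and lipid transfer genes *atg-2*, which encodes the lipid transfer protein that works with ATG-18, rose by 0.56 (adjusted p = 1.3e-05), while *atg-18* itself fell. The normalized counts of *atg-2* were 2821, 2577, 2788 and 2792 without auxin and 3663, 4693, 3760.5 and 4184 with auxin, with no overlap.

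At the ER membrane, conjugation and fusion steps, and among the upstream genes, all calls after somatic AID but that of *lmp-1* were falls. The shares called were 100% at the ER membrane, 25% in conjugation, 66.7% in fusion and 40% among the upstream genes. Over all genes tested the share was 35.6%, with 16% higher and 19.6% lower. Both genes of ER membrane proteins for autophagosome formation fell, *epg-3* by 0.19 and *epg-4* by 0.20. Of 8 conjugation genes *atg-7*, the E1-like enzyme gene, fell by 0.13 and *lgg-3*, the Atg12 gene, fell by 0.20, and the other 6 lay between -0.17 and 0.16. Of 9 genes of fusion with lysosomes 5 fell (*vps-18*, *vps-33.1*, *vps-39*, *snap-29* and *cup-5*, by 0.14 to 0.19), 3 did not pass the test, and *lmp-1*, which encodes a lysosomal membrane protein, rose by 0.19. Of 5 upstream genes *raga-1* and *daf-15*, the Raptor gene, fell by 0.18 and 0.15, with -0.05 for *let-363*, the TOR kinase gene. The 40% called among these genes thus counts *raga-1*, the edited target gene itself. The median of the germline and oocyte marker list was -0.19 in the same comparison.

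Of 7 cargo receptor and scaffold genes 3 rose and 2 fell after somatic AID, which is 71.4% called against 35.6% of all genes tested. The largest changes were in a pair of genes, singled out after their values were seen, that act on P granules, the RNA granules that autophagy clears from somatic cells of the embryo. *epg-2*, a scaffold for that clearance, had 409.6, 422, 529 and 839.7 normalized counts in RAGA-1::AID Somatic without auxin and 1759, 1409, 1567 and 1955 with auxin (log2 fold change 1.66 ± 0.15, adjusted p = 2.92e-08). *sepa-1*, the receptor for P granule components, had 238, 241, 327 and 466 without auxin and 711, 540.5, 647 and 725 with it (1.09 ± 0.16, adjusted p = 1.02e-05). In both genes no auxin replicate 4 was the highest of its group and still below every auxin library. In RAGA-1::AID Neuronal *epg-2* had 609 to 822 without auxin and 1151 to 1267 with auxin (0.72, adjusted p = 0.0158). There *sepa-1* had 367 to 460.4 without auxin and 489 to 639 with it (0.51, adjusted p = 0.112). The groups overlapped in neither gene, and 10.8% of all genes tested did not overlap in that comparison. The embryonic marker sums given above were higher with auxin after somatic AID. After neuronal AID these sums overlapped (296 to 352 with auxin against 159 to 299 without), and no embryonic gene passed the test. All 6 embryonic genes tested still had values above 0 there, with a median log2 fold change of 0.41. After somatic AID 5 of the 6 did, with a median of 0.52. The part of these shifts in *epg-2* and *sepa-1* was not tested. Of the other 5 cargo genes the mitophagy receptor gene *dct-1* rose by 0.33 after somatic AID, *fndc-1* and *allo-1* fell by 0.25 and 0.12, and *pink-1* and *pdr-1* had values of -0.10 and -0.08.

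Lysosomal lipase genes, some of them known targets of HLH-30 in fasted worms, were among the largest changes of the list. After somatic AID 3 of 5 rose, where 16% of all genes tested rose. *lipl-3* had 25.4, 19.4, 32.3 and 23 normalized counts without auxin and 102, 86.7, 124 and 58.2 with auxin (log2 fold change 1.82 ± 0.29, adjusted p = 2.97e-05), *lipl-5* had 3421 to 4710.2 without auxin and 5330.0 to 8002 with it (0.84, adjusted p = 1.02e-05), and *lipl-2* had 64.5 to 96 and 137 to 173 (0.83, adjusted p = 0.000174). The groups of these 3 lipases did not overlap, as for 37.7% of all genes tested. Before auxin all 5 lipases had values below 0 against wild type in both strains, none of which passed the test, with a median of -0.48 in RAGA-1::AID Somatic and -0.30 in RAGA-1::AID Neuronal. For *lipl-2* the somatic auxin libraries thus overlapped those of wild type without auxin (106 to 171). In the difference between somatic AID and wild type, *lipl-3* (2.11, adjusted p = 0.000658) and *lipl-5* (0.81, adjusted p = 0.00143) passed the test and *lipl-2* did not (0.80, adjusted p = 0.0101). *lipl-4*, a lipase linked to long life when overexpressed in the intestine, had 14.3 to 23 without auxin and 13.9 to 23 with it (-0.06, 95% interval -0.66 to 0.54).

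After neuronal AID *lipl-2* was the 1 gene of the 51 that passed the test (1.96% of the list against 0.441% of all genes tested), with 119, 119, 93.1 and 95.2 normalized counts without auxin and 211, 177, 178 and 185 with auxin (0.82 ± 0.16, adjusted p = 0.00784). That call was lost with any 1 of its 8 libraries left out (0.76 to 0.88, adjusted p 0.0125 to 0.0313). DESeq2 on the recovered reads called 4 of the 51 genes, *lipl-2*, *epg-2*, *lmp-1* and *mtm-3*. With the replicate number as a block, limma called 6 of the 51 genes (*lipl-1*, *lipl-2*, *lipl-5*, *epg-2*, *lmp-1* and *mtm-3*), and 231 of all genes tested in place of 58. *lipl-3* went from 32.8, 9.94, 17.4 and 23.5 to 52.6, 32.7, 29.6 and 46.9 (1.00, adjusted p = 0.0892), *lipl-5* had 4424 to 4971 without auxin and 5212 to 7606 with it (0.44, adjusted p = 0.0732), and *lipl-4* went from 15.2, 29.8, 25.2 and 20.4 to 26.8, 66.1, 60.1 and 42.6 (1.04, adjusted p = 0.0724). All 5 lipases had a value above 0 after neuronal AID, and the median was 1.00. The groups of *lipl-2* and *lipl-5* did not overlap there, as for 10.8% of all genes tested. The responses of *lipl-2* in the AID strains differed by 0.01 (95% interval -0.45 to 0.47, adjusted p = 0.974), while that of *lipl-4* was lower after somatic than after neuronal AID by a value of -1.10 that did not pass the test (adjusted p = 0.0575).

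*lipl-1* varied with the replicate number in every group. In RAGA-1::AID Somatic it had 6.35, 51.7, 71.7 and 6.76 normalized counts without auxin and 80.7, 127, 130.4 and 66.6 with it (2.18 ± 0.83, adjusted p = 0.0335), and in RAGA-1::AID Neuronal 15.2, 99.4, 82.7 and 17.9 without auxin and 50.8, 238, 223 and 52.2 with it (1.46, adjusted p = 0.435). In wild type without auxin replicates 2 and 3 were likewise above 1 and 4, with 28.1, 161, 119 and 27.9. Within each pair of replicates 1 and 4, or 2 and 3, both auxin libraries lay above both without auxin in both AID strains. With the replicate number as a block in the limma fit, *lipl-1* passed the test after neuronal AID.

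**Figure D4:**
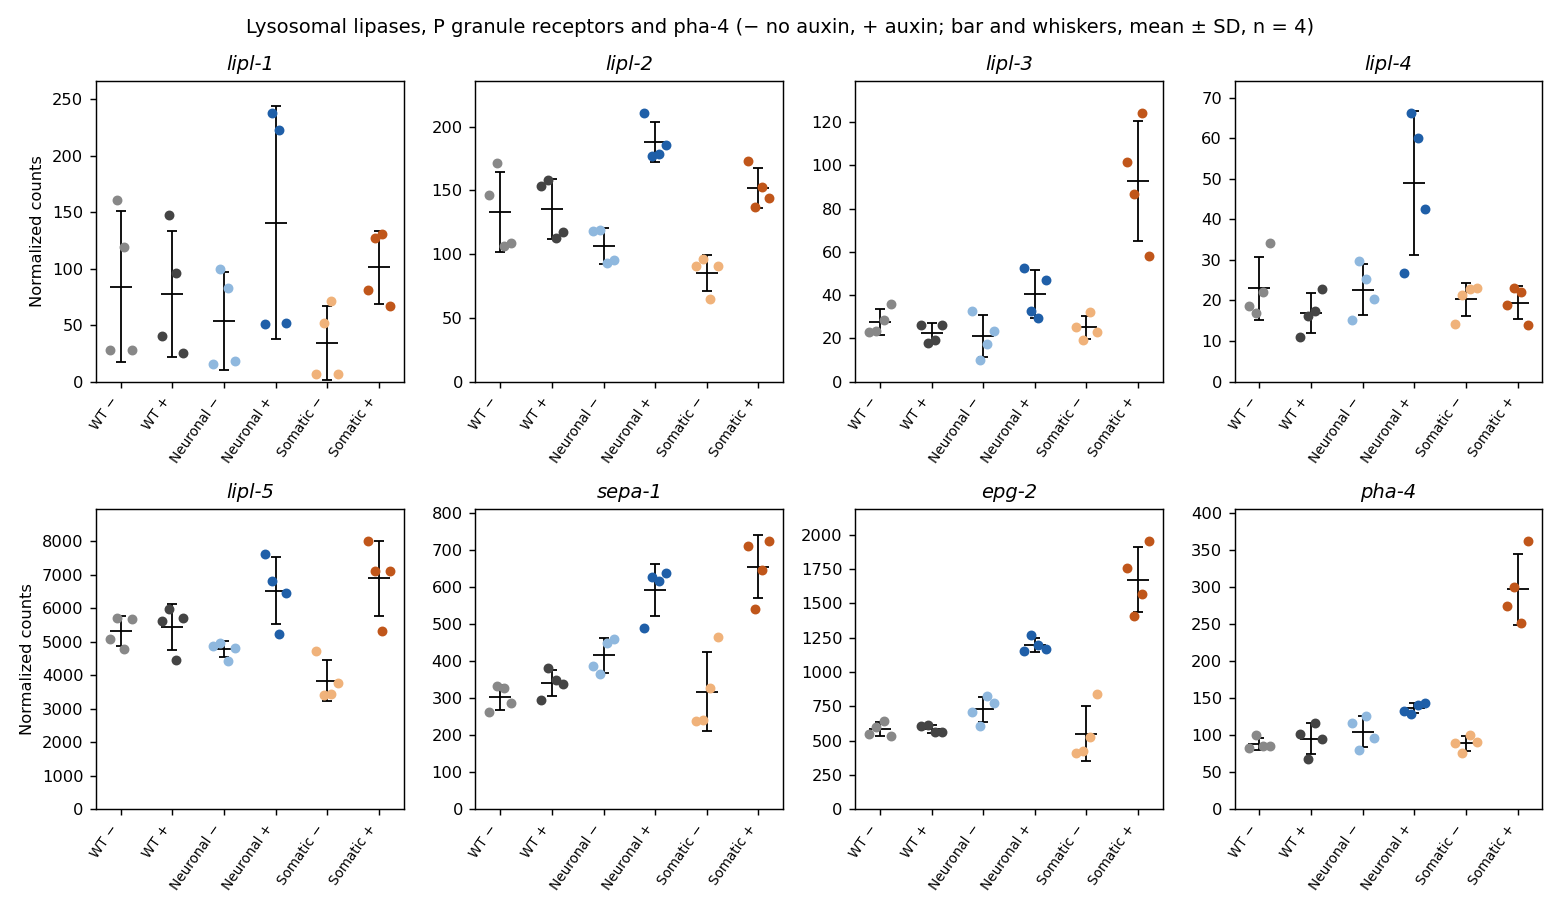
Normalized counts (vertical axis, linear, starting at 0, a separate scale for each gene) of the 5 lysosomal lipase genes, *sepa-1*, *epg-2* and *pha-4* in every library; points are the 4 libraries of each group in the order of their replicate numbers (− no auxin, + auxin), and bars with whiskers are the mean ± SD. The *lipl-1* points of replicates 2 and 3 lie above those of 1 and 4 in all 6 groups, and *epg-2*, *sepa-1*, *lipl-2*, *lipl-5* and *pha-4* separate by auxin in both AID strains.

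Among 6 genes of transcription factors and regulators, 2 rose and 1 fell after somatic AID, 50% against 35.6% of all genes tested. *pha-4*, the FoxA factor of the pharynx and gut that is needed for autophagy under dietary restriction, went from 88.9, 75.7, 100.4 and 90.6 normalized counts to 274, 299, 251 and 362 (1.72 ± 0.15, 3.3-fold, adjusted p = 2.12e-08). All 4 pharynx muscle genes rose in the same comparison. These 4 genes also had values above 0 after neuronal AID, with a median of 0.32, though none passed the test there. After neuronal AID *pha-4* had 117, 79.5, 126 and 96.4 without auxin and 133, 129, 141 and 144 with it (0.40, adjusted p = 0.214). These groups did not overlap, as for 10.8% of all genes tested. The difference between the AID strains was 1.32 (adjusted p = 0.000264), and within replicates 2 and 3 alone it was 1.22 (adjusted p = 0.11).

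*mxl-3*, a repressor of lipase genes that opposes HLH-30 in fed worms, rose with *hlh-30*. It had 775, 620.1, 608 and 677 normalized counts without auxin and 1057, 887, 969 and 917 with auxin after somatic AID (0.52 ± 0.12, adjusted p = 0.00167). After neuronal AID it had 677 to 876 without auxin and 553 to 716 with it (-0.22, adjusted p = 0.442), and the difference of 0.73 between the strains passed the test (adjusted p = 0.00495). Within replicates 1 and 4 it was 0.64 (adjusted p = 0.0241) and within replicates 2 and 3 it was 0.83 (adjusted p = 0.0465). That difference was also lost (0.65 to 0.70, adjusted p 0.0116 to 0.0132) on leaving out RAGA-1::AID Neuronal no auxin replicate 4 or auxin replicate 2, or RAGA-1::AID Somatic no auxin replicate 2 or 3 or auxin replicate 1. *mml-1*, a Mondo factor that acts upstream of HLH-30, fell by 0.26 after somatic AID (adjusted p = 3.7e-05), and *daf-16*, the FoxO gene, had a change of -0.03.

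**Figure D5:**
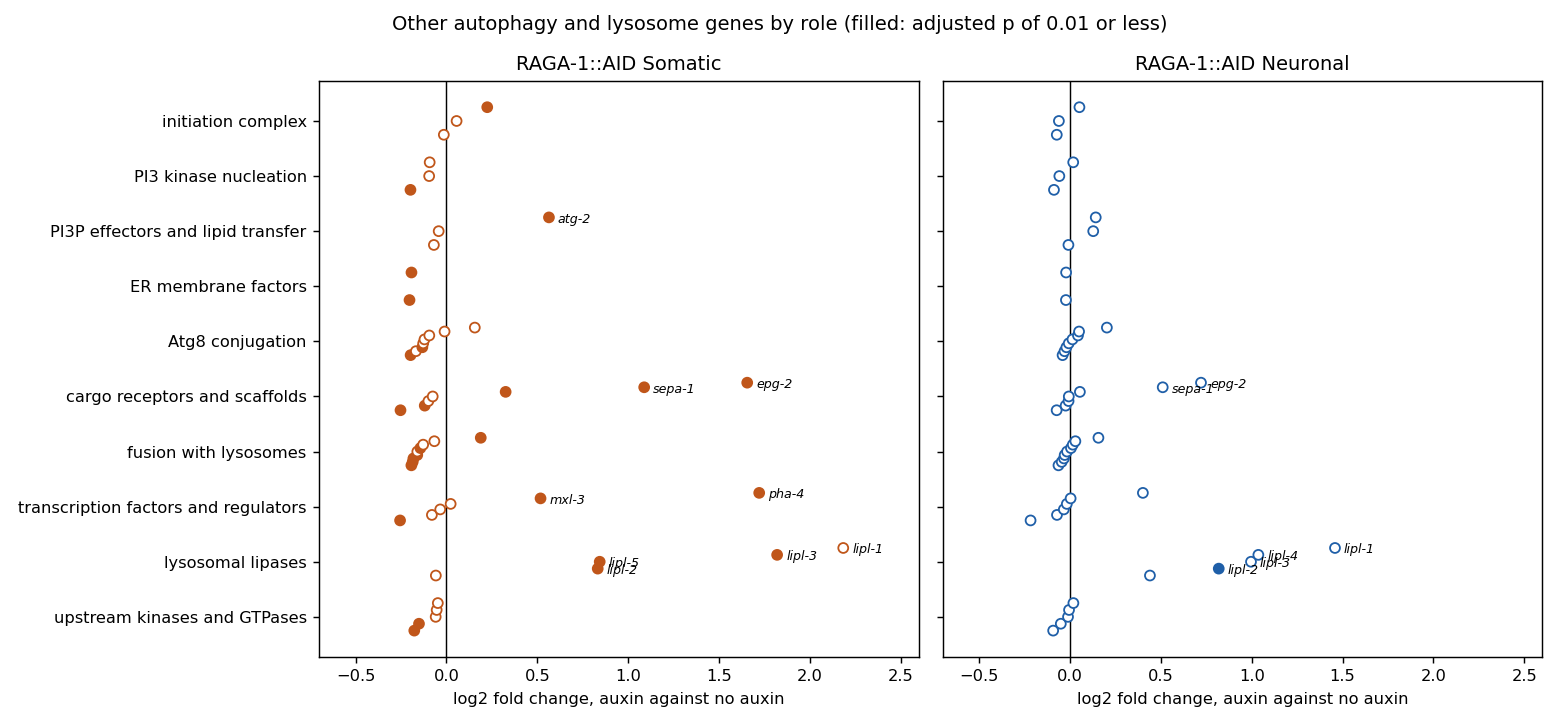
Log2 fold change with auxin against no auxin (horizontal axis) of the 51 other autophagy and lysosome genes, in rows by role, after somatic AID (left) and neuronal AID (right); each point is a gene, filled where the adjusted p was 0.01 or less, and genes past 0.5 in size are named. In RAGA-1::AID Somatic most filled points lie close to 0 and to its left, with *lipl-3*, *pha-4*, *epg-2* and *sepa-1* far to the right, and in RAGA-1::AID Neuronal the filled point is *lipl-2*.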

How the data were processed

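The authors deposited normalized counts, a signal in which each gene's count was divided by 1 size factor per library. Polyadenylated RNA was sequenced as paired 50-base reads. The submitters' processing notes name FastQC 0.11.5, STAR 2.7.0, MultiQC, Salmon 1.4.0, R 4.1.2, DESeq2 1.34.0 and the genome build WBcel235, and the strand setting of the counting is not given in the sources used here. Whole reads were recovered for all values within 0.01 of a whole number. Gene spans and exon lengths were read from the Ensembl 115 annotation of WBcel235. No sequence is shown.

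Group means of all 24 libraries were fitted to log2(normalized count + 1) with limma 3.58.1 and an intensity trend in R 4.3.3, for the 13150 genes that reached 10 normalized counts in 4 libraries or more. P-values were two-sided, adjusted over all genes tested (Benjamini-Hochberg), and called at 0.01 or less. Fold changes are on the log2(normalized count + 1) scale, which understates changes of low genes, and wild type auxin served as the control for auxin itself. Alternatives were edgeR 4.0.16 and DESeq2 1.42.0 on recovered reads, other pseudocounts (0.5 and 4), filters, scalings and thresholds, the replicate number as a block, replicates 1 and 4 or 2 and 3 alone, and each library left out. The statistics were checked on simulated data. Tables and figures were made with Python 3.11.15, numpy 2.4.6, pandas 2.3.3 and matplotlib 3.10.9.

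Same-numbered libraries deviated together with every correlation over 0.1 in the wild type auxin comparison (0.103 to 0.231) and between the neuronal strain and wild type without auxin (0.102 to 0.234). In the latter, neuronal replicate 4 was most like wild type replicate 1. The main fit had no term for the replicate number. With it as a block, limma called 231 of all genes tested after neuronal AID in place of 58. In the auxin comparisons each library was most like its own number, with correlations of 0.0786 to 0.238 for somatic AID and 0.0925 to 0.339 for neuronal AID. The labels give the number and no shared litter or day. No 2 libraries of a group were alike within sampling noise.

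The 10 genes, the lists and the marker genes were chosen with earlier results of these data known. The text names all 10 genes, *raga-1*, the listed genes called after neuronal AID, the 8 called after somatic AID with the largest change, and the 3 genes most like *lgg-1*, *sqst-1* and *hlh-30*. Other listed genes were named to describe their role group after their values were seen. One intestinal marker of the list, *opt-2*, was not matched and not analysed here.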

Additional observations from a re-analysis of the deposited data

Results flagged for a closer look

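Of 60 sets of 4 libraries (10 genes in 6 groups), 3 held a library far from the other 3, where chance gives about 1 in 20. RAGA-1::AID Neuronal no auxin replicate 4 had 6794 normalized counts of *lgg-1* against 6567 to 6604 in the others. RAGA-1::AID Somatic auxin replicate 2 had 1643 of *bec-1* against 1251 to 1298, and RAGA-1::AID Neuronal auxin replicate 1 had 5308 of *atg-18* against 5532 to 5555.

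The response to auxin differed between strains in 7 tests of the difference itself (limma). Somatic minus neuronal AID was 0.17 for *lgg-1*, -0.16 for *atg-18* and 0.35 for *hlh-30* on the log2 scale. Somatic AID minus wild type was 0.31 for *lgg-1*, 0.23 for *lgg-2*, -0.18 for *atg-18* and 0.30 for *hlh-30*. These comparisons share the libraries of RAGA-1::AID Somatic.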

How the results depend on the processing

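With 2 replicates a group, fewer libraries were fitted and fewer core genes were called. Some estimates also differed between the pairs, and the cause of the lost calls was not tested. In replicates 2 and 3 alone 3 core genes and 14 of the other 51 genes were called after somatic AID, 0 in the difference of somatic and neuronal AID and 1 in that of somatic AID and wild type. In replicates 1 and 4 alone these differences gave 1 and 2 calls. After neuronal AID both pairs gave 0 core genes and 0 of the other 51, and with 1 library left out the count was 0 to 1 and 0 to 0. The 51 genes gave 0 calls after neuronal AID with no filter, 4 with DESeq2, 4 at an adjusted p of 0.05 and 5 with a term for the pairs. With no filter, by quantile normalization and in a fit of the compared libraries alone the adjusted p of *lipl-2* was 0.0108, 0.0148 and 0.0103.

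With the replicate block limma called 6 of the 51 genes after neuronal AID (*lipl-1*, *lipl-2*, *lipl-5*, *epg-2*, *lmp-1* and *mtm-3*) and edgeR called 7 (*lipl-4* in addition), and over all genes tested limma called 231 in place of 58 and DESeq2 without a block 221. The adjusted p of *lgg-1* after neuronal AID was 0.00106 with the block, which changed no call of a core gene. Same-number correlations were 0.0786 to 0.238 for somatic AID, 0.0925 to 0.339 for neuronal AID and -0.00813 to 0.198 for the somatic strain against wild type without auxin, and each library was most like its own number in the 3 auxin comparisons.

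Directions turned for 3 genes that did not pass the test. *bec-1* after somatic AID was 0.031 in replicates 2 and 3. *atg-16.2* after neuronal AID was 0.027 in replicates 2 and 3 and -0.035 to 0.0080 with 1 library left out. *epg-5* after somatic AID was 0.00705 (TMM), 0.0191 (quantile), 0.0303 (replicates 2 and 3), 0.00718 (edgeR), 0.00677 (edgeR with block), 0.00108 (DESeq2) and -0.052 to 0.027 with 1 library left out. After neuronal AID *epg-5* was 0.00919 (quantile), 0.00578 (replicates 2 and 3) and -0.025 to 0.018 with 1 library left out. The cause was not tested. Quantile normalization moved the share of higher calls after somatic AID from 45.0% to 34.4%. Per kb of its longest transcript *hlh-30* was at 516.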
